A study of Caenorhabditis elegans with 6 samples.

Results

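The gene mbl-1 (locus K02H8.1) of the nematode Caenorhabditis elegans encodes MBL-1, the worm's muscleblind protein, and the RNA of this gene was examined in RNA that was precipitated with the protein itself. Every summit of the 3 deposited peak lists that fell inside the annotated gene (WBcel235, chromosome X, 16978608 to 17010300) was taken, which gave 22 of 459 summits. They formed 8 of the 255 enriched regions of the series, and mbl-1 is 1 of 131 protein-coding genes with a summit, among 19983 annotated. Summits were taken by gene and position, not by the size of a peak. The gene itself was chosen with earlier results of these data known.

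Muscleblind proteins bind RNA through CCCH zinc fingers and recognise short YGCY words, where Y is a pyrimidine. They steer alternative splicing, and also the stability and place of mRNAs, in muscle and neurons. In flies and mammals, muscleblind proteins are known to bind RNA of their own genes. In Drosophila the muscleblind gene yields an abundant circular RNA flanked by introns that the protein binds, and in mammals MBNL1 acts on the splicing of its own transcript.

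The study set 3 anti-FLAG IPs against 3 RNA inputs, the RNA taken before precipitation. All 6 samples came from whole L4 larvae whose MBL-1 bears a 3xFLAG tag (genotype mbl-1c(syb5299)), grown at 20 °C on OP50 bacteria. The comparison asks which RNA the precipitation enriched over input. Lists 1, 2 and 3 each hold the peaks of 1 IP over the input of the same number, so each list is 1 replicate. The labels do not say that replicates were separate cultures, so the spread between lists may be technical. The animals are whole, so the cell type that the precipitated RNA came from is not known, and no IP of untagged animals is part of the comparison made here. As the tag sits in mbl-1 itself, all samples carry the altered gene.

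The libraries were shallow. After removal of tags at the same position, the IPs held 39033 to 49827 tags and the inputs 30707 to 38364. A tag is an aligned read, which the authors' caller, MACS2, extended to 201 to 203 bp. The tag number at a summit is the count of extended IP tags that cover it, recovered from the deposited pileup. Fold enrichment is the caller's ratio of IP pileup to local input level, with 1 added to both. These folds are the authors' values for each peak. Intervals given below are 95% Poisson intervals of the tags and cover counting error only.

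RNA of mbl-1 was enriched at 6 places in list 1, 8 in list 2 and 8 in list 3. Of its 8 regions, numbered here from the low-coordinate end, 6 were in all 3 lists and regions 4 and 8 were in lists 2 and 3. A region in all 3 lists was held by 20 protein-coding genes, which is 0.100% of those annotated, 46 genes (0.230%) held a region in at least 2 lists, and 3 genes (0.0150%), mbl-1 among them, held 2 or more regions in all 3 lists. The mbl-1 peaks made up 5.5% of the summits in list 1, 5.3% in list 2 and 4.02% in list 3. Of the 64 regions of the series found in all lists, 6 (9.38%) lay in mbl-1.

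**Figure D1:**
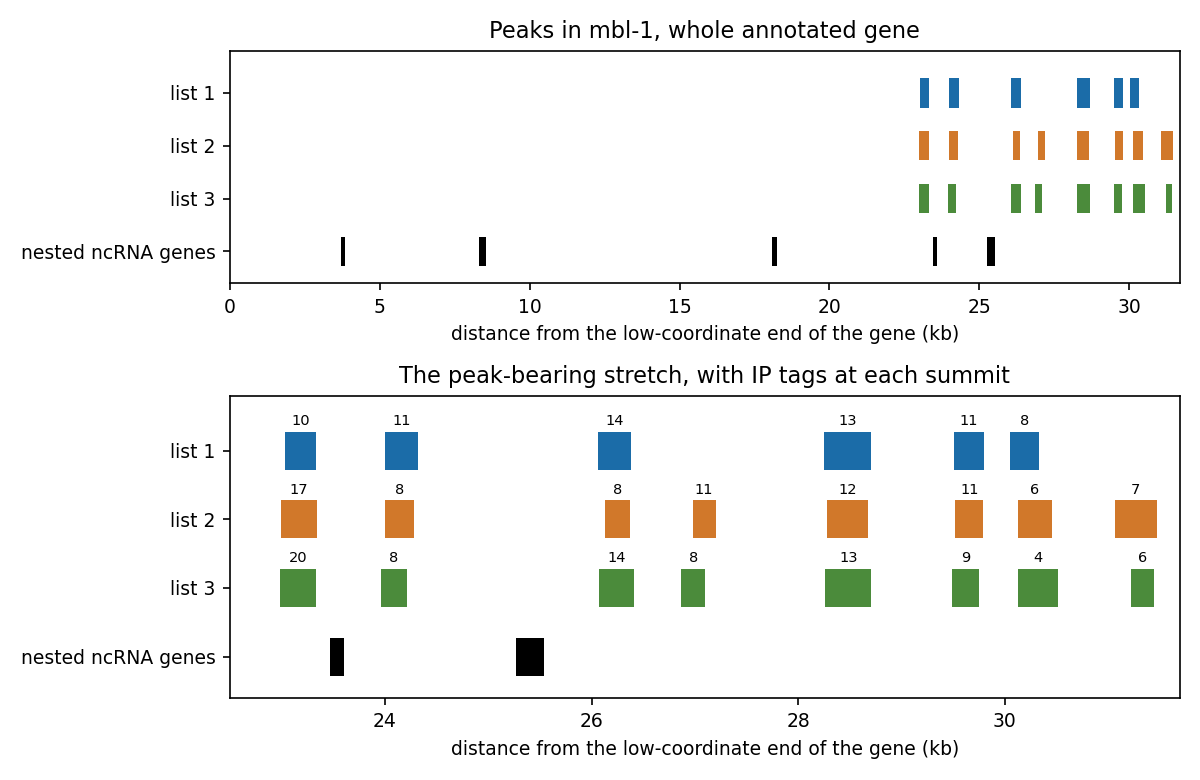
Peaks of lists 1, 2 and 3 along mbl-1, as bars by distance in kb from the low-coordinate end of the gene, with the 5 nested ncRNA genes in black; the lower panel enlarges the stretch with peaks and prints the IP tags at each summit. All peaks lie beyond the first 22988 bp, and regions 4 and 8 are missing from list 1.

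Region 1 (X, 17001596 to 17001946) was the most enriched of the 8 by mean fold. Its summit had 10 IP tags in list 1, 17 in list 2 and 20 in list 3. The fold was 8.51 in list 1 (interval 4.51 to 15), 11.5 in list 2 (7.02 to 17.9) and 13.2 in list 3 (8.42 to 20), with a mean of 11.1 ± 2.39 (SD, n = 3). It was the strongest mbl-1 region in lists 2 and 3, but region 5, region 2 and region 6 were higher in list 1. Its 3 summits lay within 39 bp of each other, and 303 of its 351 bp were covered by a peak of every list.

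Region 2 (X, 17002566 to 17002925) was higher in list 1 than in the others. It had 11 IP tags and a fold of 9.28 in list 1, 8 tags and 5.83 in list 2, and 8 tags and 5.81 in list 3. Its mean fold was 6.97 ± 2 (SD, n = 3), and the summits spread over 80 bp. Between regions 1 and 2 lies the nested non-coding RNA gene K02H8.5 (17002072 to 17002214), 126 bp from the nearest peak and overlapped by none.

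Region 3 (X, 17004667 to 17005015) holds the only mbl-1 summit with an input level above the genome-wide background. It had 14 IP tags in list 1, 8 in list 2 and 14 in list 3, with folds of 7.07, 5.83 and 9.53 and a mean of 7.48 ± 1.88 (SD, n = 3). In list 1 the recovered input level was 1, the value of 1 input tag over the summit. Scaled to depth, 14 IP tags against 1 input tag are a ratio of 13.1, with an exact interval of 2 to 556. The nested gene K02H8.4 (17003875 to 17004144), another non-coding RNA, lies 523 bp from the nearest peak.

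Region 4 (X, 17005476 to 17005807) was absent from list 1. It had 11 IP tags and a fold of 7.71 in list 2, and 8 tags and 5.81 in list 3. The 2 peaks shared 121 of 332 bp, the smallest shared part of the 8 regions (36.4%), and their summits lay 89 bp apart. At the depth of list 1 these tags correspond to 8.62 (interval 4.3 to 15.4) and 7.46 (3.22 to 14.7). List 1 called a peak from 4 tags where input was at the background, so that a stretch of 4 or more tags as long as the extension would have been listed there. The interval from list 2 lies above that number and the one from list 3 reaches below it. Neither interval holds the counting error of list 1 itself, so the absence there was not shown to exceed counting error. The input of list 1 at this place is not known, since values exist for called peaks alone.

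Region 5 (X, 17006861 to 17007313) varied least in fold among the regions in all 3 lists. It had 13 IP tags in list 1, 12 in list 2 and 13 in list 3. The folds were 10.8, 8.34 and 8.91, with a mean of 9.35 ± 1.3 (SD, n = 3) and a coefficient of variation of 13.9%. In IP tags per 10000 its mean was 2.95 ± 0.481 (SD, n = 3), and region 6 had a smaller SD (2.39 ± 0.37). Its peaks were also the longest in lists 1 and 3, at 453 and 443 bp, and 400 bp in list 2. The summits agreed within 29 bp, the closest of the 8 regions, and 88.3% of the region was covered by a peak of every list.

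Region 6 (X, 17008094 to 17008401) had 11, 11 and 9 IP tags in lists 1, 2 and 3. Its folds of 9.28, 7.71 and 6.43 gave a mean of 7.81 ± 1.43 (SD, n = 3). The summits lay within 37 bp.

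Region 7 (X, 17008657 to 17009124) was the lowest of the regions in all 3 lists. It had 8 IP tags in list 1, 6 in list 2 and 4 in list 3, and folds of 6.97, 4.57 and 3.32 with a mean of 4.96 ± 1.85 (SD, n = 3). In list 3 the deposited −log10 q was 0, so that this peak did not pass a q of 0.05, the only one of the 22 mbl-1 summits that did not. Without it the region was in lists 1 and 2.

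Region 8 (X, 17009670 to 17010076) lay closest to the high-coordinate end of the gene, with summits 404 and 360 bp from it. It had 7 IP tags and a fold of 5.2 in list 2, and 6 tags and 4.56 in list 3. At the depth of list 1 these tags correspond to 5.48 (interval 2.2 to 11.3) and 5.6 (2.05 to 12.2). Both intervals reach below the 4 tags from which list 1 called peaks, so a difference of list 1 from the others at region 8 was not detectable at this depth.

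**Figure D2:**
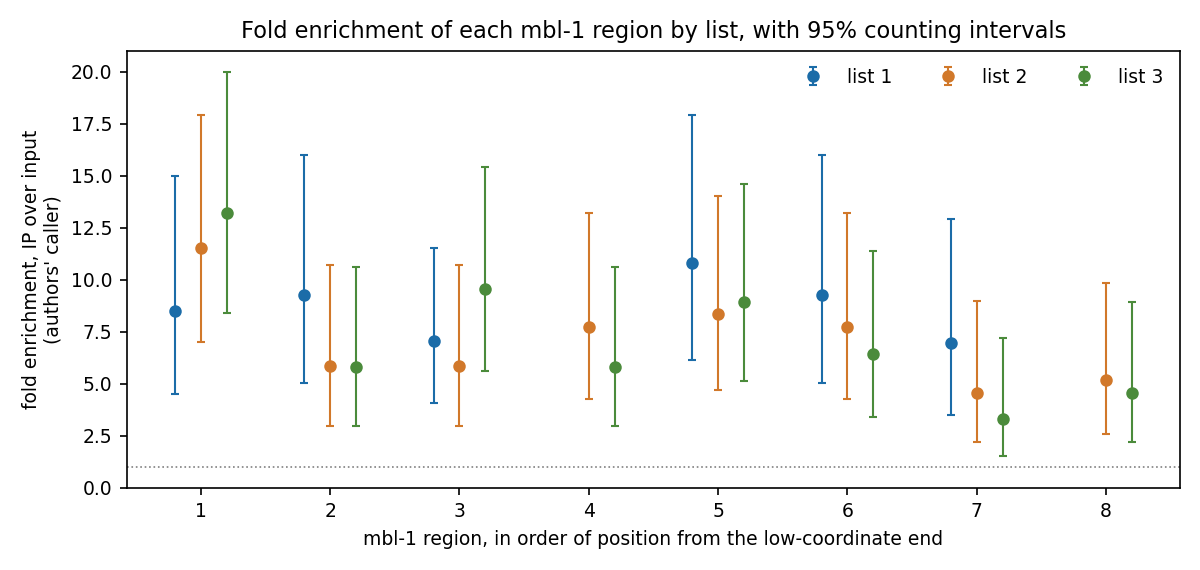
Fold enrichment of IP over input at the 8 mbl-1 regions, as the authors' caller gave it, with 1 point per list and bars for the 95% counting interval of the IP tags, the input held at its recovered level; the dotted line marks a fold of 1. The intervals of different lists overlap at every region.

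Ordered by mean fold, the 6 regions in all lists ran from region 1 over regions 5, 6, 3 and 2 to region 7. The inner order depended on the scale: region 2 (35.3) stood above region 3 (32.1) in mean folds without the added 1, and region 3 (2.85) above region 6 (2.39) in mean IP tags per 10000, while regions 1 and 5 stayed the highest and region 7 the lowest of the 6. Neighbours in this order mostly did not differ beyond their spread. Regions 1 and 5 differed by 1.72, regions 6 and 3 by 0.33 and regions 3 and 2 by 0.503, each less than the larger SD of the pair. Regions 5 and 6 differed by 1.55, and regions 2 and 7 by 2.01, just over the larger SD, with the same order in all 3 lists. Among the 15 pairs, 8 had the same order in every list, and region 7 was the lower one in all 5 of its pairs. With 3 lists the exact two-sided sign-flip permutation test cannot go below p = 0.25, which those 8 pairs reached (adjusted p = 0.469, Benjamini-Hochberg over 15 pairs). No pair of regions can therefore be called different by that test.

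Counting error alone was wide against these differences. Within list 3 the intervals of regions 1 and 7 did not overlap, which was 1 of 28 pairs, and within lists 1 and 2 all 15 and all 28 pairs overlapped. Between lists, the intervals of the same region overlapped in all 20 pairs. Summed over the 6 shared regions, the summits held 67, 62 and 68 IP tags, or 17.2 (interval 13.3 to 21.8), 12.4 (9.54 to 16) and 16.3 (12.6 to 20.6) per 10000 IP tags. The 3 lists thus overlapped within counting error in the summed signal of these 6 shared regions. These sums leave out the regions that list 1 lacked, and taking regions called in every list favours likeness between lists. Over all called mbl-1 summits, list 2 held 80 IP tags (16.1 per 10000) and list 3 held 82 (19.6 per 10000), while the sum of list 1 stayed at 67.

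The order of the regions was only partly shared between lists. Across the 6 regions, Spearman's rho of the folds was 0.574 for lists 1 and 2, 0.116 for lists 1 and 3 and 0.754 for lists 2 and 3. For IP tags per 10000 it was 0.132 for lists 1 and 2, 0.406 for lists 1 and 3 and 0.754 for lists 2 and 3, so which pair was least alike depended on the measure. The regions of a list share its library and depth, and the values are given as a description. Fold was lower toward the high-coordinate end in lists 2 and 3, with a rho of −0.566 and −0.695 between summit position and fold over 8 summits each, while in list 1 it was −0.174 over 6 summits.

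Input was at or near its floor at the mbl-1 summits. At 21 of the 22 summits the local input level was the genome-wide background of the caller (0.184 to 0.228), so that no input tag covered the summit and the fold has no measured denominator. This was not particular to mbl-1. Of all summits, 57 of 109 in list 1, 81 of 151 in list 2 and 132 of 199 in list 3 had input at the background. In genes with similar summit numbers it was 10 of 10 summits in egl-8, 9 of 10 in rig-6 and 11 of 12 in Y55B1BL.1. That the IP exceeded the input at a listed summit was fixed by the peak calling. Set against 3 input tags, the upper limit that a count of 0 allows, and scaled to depth, the IP tags gave ratios of 1.47 to 4.89 at 20 of these 21 summits and 0.979 at region 7 in list 3. These ratios leave out the counting error of the IP, and at region 8 in list 3, for example, 6 IP tags have an interval of 2.2 to 13.1.

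Over wider windows of the stretch, input was not above the genome-wide average, as the caller's local level also uses a window of 10000 bp around each summit. In each list the window that held the most mbl-1 summits was taken. The input maxima below follow from the genome-wide background level, so that any summit with input at the background would give the same ones. They show nothing particular to mbl-1. In list 2, 8 mbl-1 summits in the window around region 4 held 80 IP tags, against at most 11 input tags in the entire window. In list 3 the same comparison gave 82 IP tags at 8 summits, against at most 9 input tags. In list 1 the window around region 5 held 57 IP tags at 5 summits, against at most 10 input tags. Scaled to the tags kept after duplicate removal, the IP tags at these summits were 5.35 times that input maximum in list 1, 5.6 times in list 2 and 6.69 times in list 3. Summits are the places of highest IP coverage, which favours the IP, while IP tags between summits were not counted, which works the other way, so these are descriptions and not bounds.

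Most of the annotated gene had no peak. The peaks of any list covered 3028 of its 31693 bp (9.55%), and 1598 bp (5.04%) were covered in all 3 lists. The first 22988 bp from the low-coordinate end (72.5% of the gene) held none in any list. The last 224 bp held none either. From the first to the last region the stretch was 8481 bp, 26.8% of the gene, and 35.7% of that stretch lay under a peak. Within it the regions were separated by gaps of 255 to 1741 bp, the longest between regions 2 and 3, and each gap was longer than the extended tag, so that neighbouring regions did not rest on the same tags.

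All 3 lists were silent at the 5 non-coding RNA genes nested in mbl-1. K02H8.3, K02H8.2 and K02H8.6 lie in the stretch without peaks, 19157, 14451 and 4726 bp from the nearest one, and K02H8.5 and K02H8.4 lie in gaps between regions. Outside the gene, the neighbouring coding genes F52G3.5 and F35B3.3 had no peak. The nearest summits elsewhere on the chromosome were 35962 bp away on the low side, in C30E1.9 in list 2 with a fold of 3.95, and 410711 bp away on the high side, in osm-11 in list 1 with 5.44. The listed signal thus lay inside mbl-1. It stopped 224 bp before the high-coordinate end of the gene, but 22988 bp before the low-coordinate end.

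The absence of a peak is limited by depth. With input at the background, the caller needed 4 IP tags in lists 1 and 2 and 3 in list 3, over at least the extension length. RNA at lower coverage in the first 22988 bp would not be listed. The gene table used here lists 7 transcripts of mbl-1 but no exons or strand, so the place of each region on exons, introns or UTRs, and which end of the gene is the 3′ end, is not given. Introns are missing from mature mRNA, and how far the gaps follow introns was not tested. Genomic sequence was not used here, so the YGCY words of the regions are not given.

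Beside the other coding genes, mbl-1 stood first by number of regions. It held 6 regions in all 3 lists, and the next gene held 3. Of the 131 coding genes with a summit, 17 had 1 such region, 1 had 2, and 111 had none. Gene length bears on this count, since a longer gene offers more places. Per 10 kb of annotated gene, mbl-1 had 1.89 regions in all 3 lists, and 13 of the 20 genes with such a region had more. Only 1 other coding gene with a summit was longer than mbl-1, and it had 1 region in at least 2 lists and 0 in all 3.

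**Figure D3:**
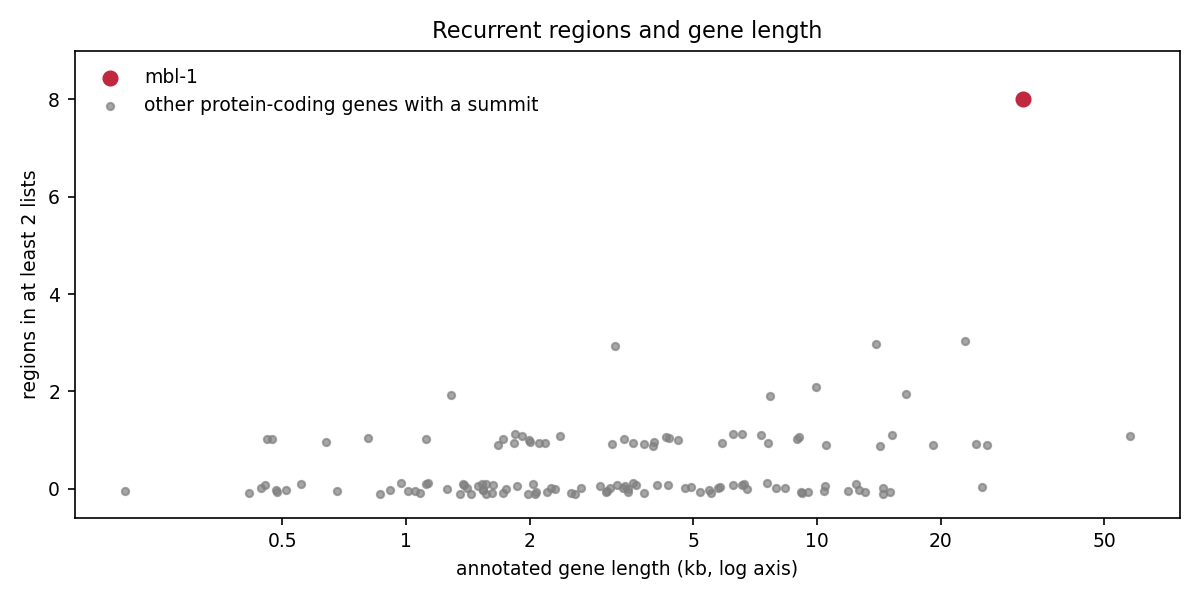
Regions found in at least 2 lists against annotated gene length in kb (log axis) for the 131 protein-coding genes with a summit, with mbl-1 as the large red point and the others jittered slightly on the vertical axis. The point for mbl-1 is at 8 regions, and no other gene exceeds 3.

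The genes most like mbl-1 were taken by the distance between their summit numbers in the 3 lists and those of mbl-1, which were 6, 8 and 8. They were Y55B1BL.1 (4, 4 and 4 summits), egl-8 (3, 3 and 4), lin-1 (2, 3 and 5), rig-6 (2, 3 and 5) and F09E10.7 (2, 2 and 2), at distances of 6 to 9.38 over 3 lists. Folds ran from 3.32 to 13.2 over the 22 mbl-1 summits, and from 3.94 to 12.1 over the 10 summits of the phospholipase C beta gene egl-8. The mbl-1 peaks lay between 72.5 and 99.3% of the gene from the low-coordinate end, and those of egl-8 between 24.6 and 59.2%. In rig-6, which encodes a neuronal cell adhesion protein of the contactin family, the folds were lower, at 2.7 to 5.44.

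All 22 mbl-1 summits were separate peaks with 1 summit each. The 5 summits of lin-1 in list 3 lay in 1 wide peak with folds of up to 112, and the 4 summits of Y55B1BL.1 lay in 3 peaks in each list, with folds of up to 54.7. The gene mbl-1 is 31693 bp long, against 3232 bp for Y55B1BL.1. In egl-8 and rig-6, too, each summit was a separate peak, with 3, 3 and 4 peaks in egl-8 and 2, 3 and 5 in rig-6. The many summits of mbl-1 were thus spread over distinct places, as those of egl-8 and rig-6 were, and its folds were moderate.

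The median fold of the mbl-1 summits lay above the pooled median of the summits of other coding genes in each list, while single mbl-1 summits ranged widely. It did not lie above every single gene. The 1 summit of dap-1 in each list, for example, had folds of 10.1, 7.71 and 7.05 in lists 1, 2 and 3. In list 1 the median fold was 8.9 over 6 mbl-1 summits, against 5.44 over 60 summits of other coding genes. In list 2 it was 6.77 over 8 mbl-1 summits, against 4.57 over 79. In list 3 it was 6.12 over 8 mbl-1 summits, against 3.94 over 138. The number of mbl-1 summits above the median fold of the whole list, structured RNA genes included, was 6 of 6 in list 1, 6 of 8 in list 2 and 6 of 8 in list 3. By single summits, 65.7 to 85.2% of the other summits of list 1 had a lower fold, 33.3 to 85.3% in list 2 and 9.09 to 91.4% in list 3. Among summits with a fold of at least 4, the median percentile of the mbl-1 folds was 73.9% in list 1, 49.1% in list 2 and 52.6% in list 3. Folds of peaks that passed a calling threshold were compared as a description, with no test.

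**Figure D4:**
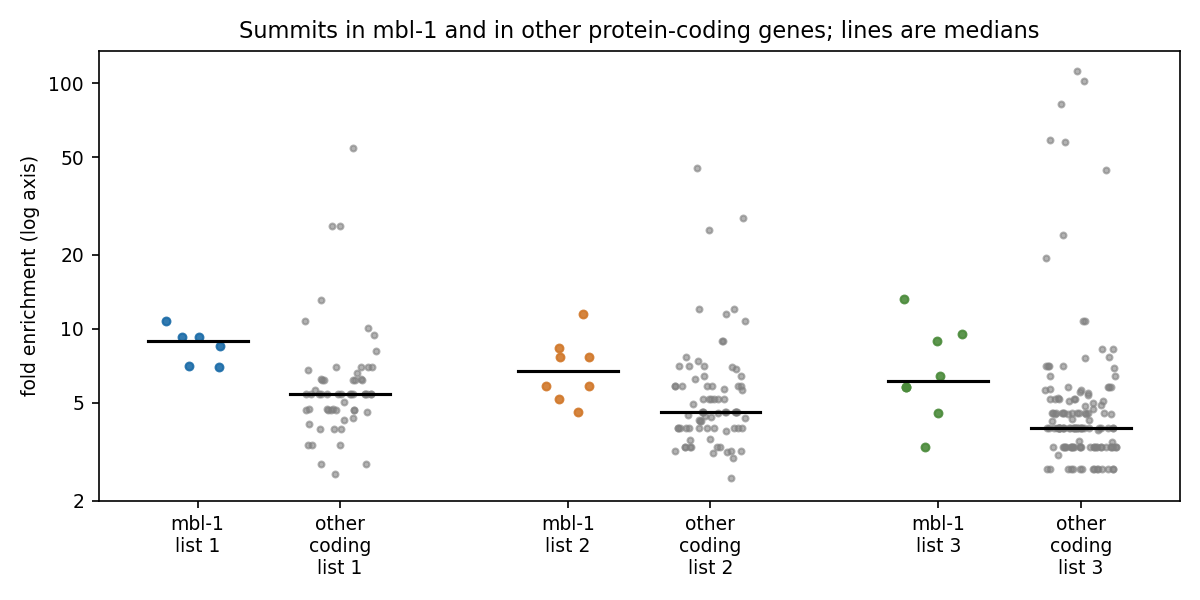
Fold enrichment on a log axis of each summit in mbl-1 (coloured) and in other protein-coding genes (grey) for lists 1, 2 and 3, with the median as a line. The mbl-1 medians of 8.9, 6.77 and 6.12 lie above the pooled medians over all summits of other coding genes, and single summits of other genes reach far higher folds.

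Nearly all mbl-1 summits passed a q of 0.05. A q over 0.05 was found at 0 of 6 mbl-1 summits in list 1, 0 of 8 in list 2 and 1 of 8 in list 3, against 9 of 109, 30 of 151 and 84 of 199 summits of the lists. The mbl-1 peaks were 281 to 453 bp long in list 1, 221 to 407 bp in list 2 and 220 to 443 bp in list 3. Their median lengths of 309, 306 and 303 bp lay near the 293, 295 and 296 bp of all summits.

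Other splicing regulators and mRNA-binding proteins were compared by a list of 38 genes. Of these, 36 were annotated under that name, 6 had a summit (mbl-1 among them), 2 had one in at least 2 lists and only mbl-1 had one in all 3. The background for a summit in any list was 0.656% of coding genes. A region in at least 2 lists was held by 0.230% and one in all 3 by 0.100%, a stricter measure, since the peaks must overlap. None of these shares takes expression into account. The list of genes holds mbl-1 itself and was written with earlier results of these data known, so its count is a description only. The poly(A)-binding protein gene pab-2 had a fold of 5.44 in list 1 and 3.07 in list 3, at overlapping places, and the peak of list 3 had a deposited −log10 q of 0. The muscle splicing regulator sup-12 had 3 summits, fox-1 and the STAR-domain gene asd-2 had 2 each, and rbm-25 had 1, all in list 3 alone, with folds of 3.32 to 4.56 from 4 to 6 IP tags. In list 3 a peak needed only 3 tags, and 6 of these 8 peaks had a deposited −log10 q of 0.

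Other genes have been tied to MBL-1 in touch receptor neurons, the kinase gene sad-1 and the tubulin genes mec-7 and mec-12. The highest mbl-1 fold was 10.8 in list 1, 11.5 in list 2 and 13.2 in list 3, above those of both tubulin genes. A highest value tends to rise with the number of summits, which was 6, 8 and 8 in mbl-1, 0, 1 and 2 in mec-7 and 2, 1 and 3 in mec-12. In list 3, for example, mbl-1 folds of 3.32 and 4.56 lay below the highest of each tubulin gene. The beta-tubulin gene mec-7 had its highest folds at 4.57 in list 2 and 6.43 in list 3, and none in list 1. The alpha-tubulin gene mec-12 had its highest folds at 6.97, 5.83 and 5.19 in lists 1, 2 and 3. No summit was found in sad-1, so that 2 of these 3 genes had one, against 0.656% of all coding genes, without regard to expression. These genes, too, were listed with earlier results of these data known.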

How the data were processed

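Peak lists of 3 anti-FLAG IPs over RNA inputs of L4 larvae were analysed. RNA was fragmented to 250 bp and read as pairs of 150 nt, per the labels' protocols. BWA, MACS2, DiffBind and WBcel235 are named in the submitters' processing notes. Per the file headers, the authors ran MACS2 2.1.0.20150420 for each IP against its own input, at a p threshold of 0.001, with an effective genome of 33769074 bp and 1 tag kept per position (67.4 to 71.9% of tags removed). The deposited signal is the pileup, scaled to the smaller library. The deposited fold is a ratio with 1 added to both levels. The deposited −log10 p and q-value columns are those of the caller. Values stand in the q column although the headers announce none.

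Dividing pileup by this scale gave whole tags within 0.01 at all summits. Input levels were recovered from pileup and fold, and counted as background within 0.01. At 57, 81 and 132 background summits of lists 1, 2 and 3, that is all of them, the deposited −log10 p was recomputed within 0.05. Peaks overlapping by at least 1 bp were merged into regions. Each summit was given the gene that holds it in a RefSeq table of WBcel235, small structured RNA genes before coding and other genes, piRNA genes left out, and the shortest gene where several of a class applied. Replicate means, SDs and an exact sign-flip test over lists were computed. Region building and tag recovery were tested on simulated data. Named genes were mbl-1, members of 2 lists with a peak, the 5 coding genes nearest in summit numbers, and genes in or next to mbl-1. The gene and the lists were chosen with earlier results of these data known. Alternatives were stricter thresholds, other overlap rules, other scales and leaving out each replicate. Python 3.11.15, numpy 2.4.6, pandas 2.3.3, scipy 1.17.1 and matplotlib 3.10.9 were used.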

Additional observations from a re-analysis of the deposited data

How the results depend on the processing

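The 6 regions in all lists and 8 in at least 2 kept these numbers under reciprocal overlap of 50%, summits within 100 bp and overlap with the gene in place of the summit. A q of at most 0.05 or a fold of at least 4 left 5 regions in all lists and 8 in at least 2. With −log10 q at 5 or more, 4 mbl-1 summits each stayed in lists 2 and 3, 3 regions were in all lists and 4 in at least 2, and 92.8% of the gene was without peaks, against 90.4%. Fewer peaks follow from that filter. With each replicate left out, the remaining lists shared 6 to 8 regions (8 without replicate 1), and mbl-1 ranked first by regions in all lists under each of these alternatives. Without the added 1, the mean folds of regions 1 to 8 were 59.9, 35.3, 32.1, 34.5, 49.3, 39.9, 23.4 and 23.8, since the background level then forms the whole denominator. The size of a fold therefore depends on that constant, and so does the order of regions 2 and 3, of regions 3 and 4 and of regions 7 and 8. In IP tags per 10000 tags, a change of unit, the mean pileups of regions 1 to 8 read 3.58, 2.11, 2.85, 2.06, 2.95, 2.39, 1.4 and 1.42. The median percentile of mbl-1 folds in list 1 was 77.3%, 85.4% among coding peaks and 52.9% at −log10 q of at least 5, and in list 2 it was 62.3% and 40.6% at that threshold. In list 3 it was 69.7% and 49.2%. The filter removes low peaks of mbl-1 and of other genes, and mbl-1 does not stand above the median of lists 2 and 3 after it. Milder settings also lowered the percentile. With a fold of at least 4 it was 73.9%, 49.1% and 52.6% in lists 1, 2 and 3. With a q of at most 0.05 it was 75.3%, 52.9% and 52.6%. The planned counts of YGCY words were not run for want of sequence in this comparison. No paired analysis was possible because a fit of IP against input would need places that were not called. The folds and the caller's p are already values within pairs, and regions were compared within lists. With 4 to 20 tags at a summit, depth limits both the order of the regions and what a missing peak shows.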
